A study of Mus musculus with 6 samples.

Results

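The endothelial and mural cell genes comprised 36 genes, which were taken by symbol from a list of cell type markers and read out among the 37620 genes of the count tables. They fell into 21 endothelial genes, of which 17 encode surface, junction or secreted proteins and 4 encode transcription factors, 5 transporters of the blood-brain barrier and 10 mural genes, expressed in pericytes and smooth muscle. Ribosome-bound mRNA of the dentate gyrus was sequenced from 3 Klf9 +/+ and 3 Klf9 f/f samples by RiboTag, in which Cre recombination adds a haemagglutinin (HA) tag to the ribosomal protein Rpl22 and an anti-HA antibody then recovers the tagged ribosomes with their mRNA. All mice carried Gli1CreERT2, a tamoxifen-dependent Cre made where Gli1 is expressed, and 1 floxed Rpl22HA allele (Rpl22HA f/+), so that both genotypes express the tag, and they differed in whether Klf9 was wild type or floxed on both alleles. Mice of 2 to 3 months received 3 tamoxifen injections 12 hr apart, and dentate gyri were taken 4 days after the last one, 6 dentate gyri of 3 mice pooled in each sample. The intended source of the tagged ribosomes was the Gli1+ radial-glial neural stem cell (RGL) of the hippocampus, and the vascular genes are known from other cells. Besides RGLs, the paper counts astrocytes and the progeny of a first division among the cells profiled. By their names, 4 libraries (replicates 1 and 2 of both genotypes) belong to series YTa22 and 2 libraries (the third replicates) to series YTa32. Replicate numbers are running numbers within a genotype and pair no samples, and with 1 sample of each genotype, series YTa32 has no spread of its own.

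Endothelial cells line the vessels. In the brain they are sealed to each other by tight junctions and carry transporters that pump drugs out and bring nutrients and hormones in, which makes the blood-brain barrier. Mural cells sit on their outer face. Smooth muscle cells ring the arterioles and contract with actin and myosin of the smooth muscle type, whereas pericytes cover the capillaries, are held there by Pdgfb signalling from the endothelium to Pdgfrb, and carry a potassium channel that couples the energy state of the cell to its membrane potential.

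Reads counted on genes ranged from 21594714 to 66343759 per library, and 16.4 to 26.6% of reads lay in the summary lines that belong to no single gene. Klf9 had a log2 fold change of -0.59 ± 0.15 (SE; Klf9 f/f over Klf9 +/+, unadjusted p = 0.0032, adjusted p = 0.844, edgeR) and was lower in each Klf9 f/f library than in each Klf9 +/+ library. Rpl22 had a log2 fold change of 0.02 ± 0.16 and Gli1 one of 0.29 ± 0.24. Genes of astroglia, the class that shares most markers with RGLs, were abundant in both genotypes: per kb of exon, Gfap averaged 568 CPM (the count as a rate of the scaled library size) in Klf9 +/+ and 759 CPM in Klf9 f/f, and Sox9 134 and 160 CPM. Each sample was an anti-HA pulldown from pooled tissue. Fewer vascular cells, less RNA per vascular cell, carry-over of untagged RNA, pulldown yield and dissection therefore cannot be told apart in any result below.

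Most of the 36 genes had lower values in Klf9 f/f, and 24 of them did not pass the call threshold. Of the 36, 34 had a negative log2 fold change (Klf9 f/f over Klf9 +/+) and 2 a positive one, with a median of -0.97 and a range of -1.97 to 0.18, beside a median of 0.00 over all 15056 genes tested. With 1 library left out, the median of the 36 ranged from -1.70 (without Klf9 f/f replicate 1) to -0.54 (without Klf9 +/+ replicate 1), with -0.62 without Klf9 f/f replicate 2. By the threshold of the study's methods, at least 1.2-fold with an unadjusted p under 0.05, 12 of the 36 were called lower and 0 higher, where 2.5% of all genes tested were called lower and 1.82% higher. These calls came from edgeR's quasi-likelihood test with the library series as a term. By group, 7 of 21 endothelial genes, 0 of 5 transporters and 5 of 10 mural genes were called lower, and the group medians were -1.04, -0.51 and -0.77. No call survived adjustment over all genes: the Benjamini-Hochberg adjusted p of the edgeR quasi-likelihood test ran from 0.909 to 1.00 over the members, 0 of 36 were under 0.05 with this test, with DESeq2 or with the likelihood-ratio test, and 12 of 36 had an unadjusted p under 0.05 (0.00513 to 0.0375 among the called genes). All 36 passed the filter of 1 CPM in at least 1 sample, each exceeded 1 CPM in some sample of both genotypes, and 33 stood at 1 CPM or more in all 6.

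**Figure D1:**
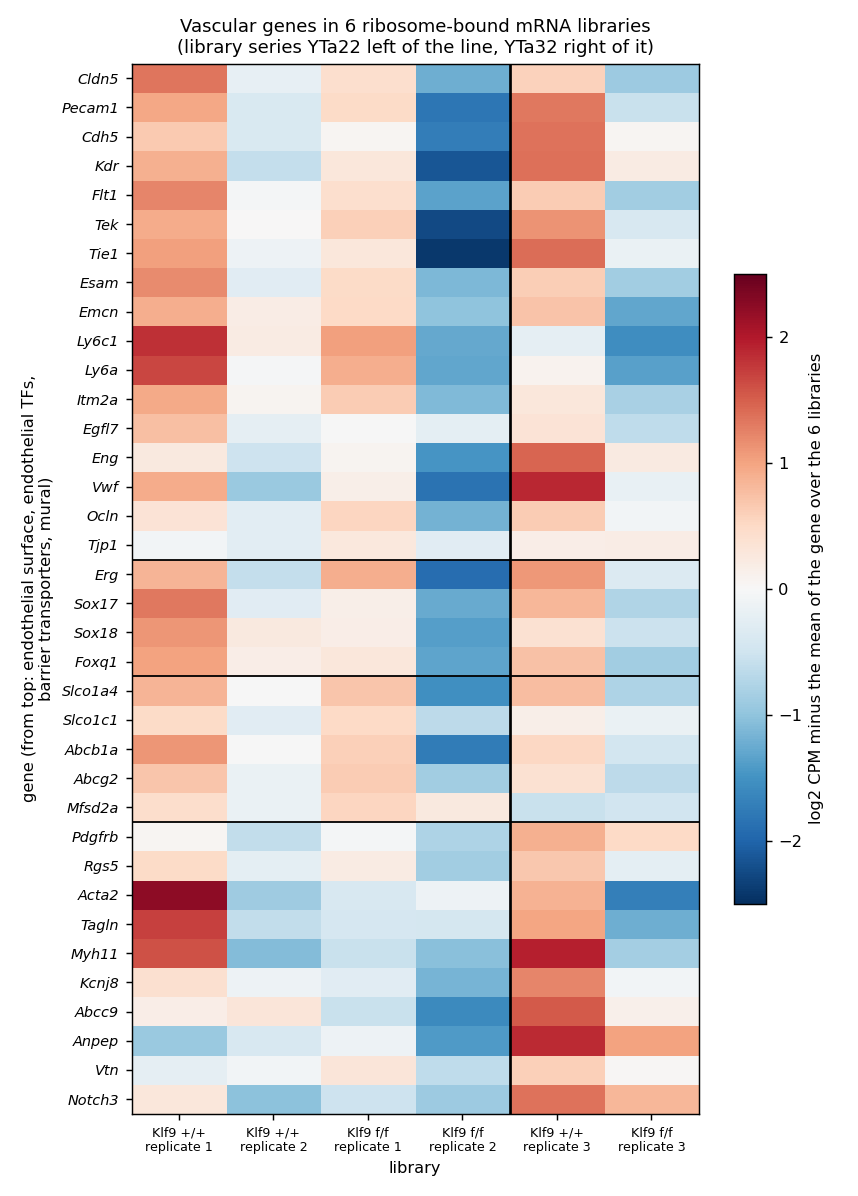
Heat map of the 36 vascular genes (rows, grouped as in the text) in the 6 libraries (columns, by library series), where colour is log2 CPM minus the gene's own mean over the libraries. Most endothelial rows are red in Klf9 +/+ replicates 1 and 3 and blue in Klf9 f/f replicate 2, whereas Acta2, Tagln and Myh11 stand out in Klf9 +/+ replicates 1 and 3 alone.

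Levels per kb of exon spanned a wide range, and are ordered here by the mean over all 6 libraries. Vtn, which encodes the matrix protein vitronectin, was highest at a mean of 257 CPM per kb in Klf9 +/+ and 223 CPM per kb in Klf9 f/f. It was followed by Itm2a, a membrane protein gene of brain endothelium, at 140 and 86.8 CPM per kb, Ly6c1 at 82.4 and 41.5 CPM per kb and Acta2 at 80.0 and 22.4 CPM per kb. The lowest were Erg at 0.39 and 0.25 CPM per kb and Abcc9 at 0.38 and 0.15 CPM per kb. Raw counts ran from 12 for Erg in Klf9 f/f replicate 2 to 37820 for Vtn in Klf9 f/f replicate 1. Replicates of 1 genotype were far apart for most of these genes, with a median coefficient of variation of 47.5% (15.2 to 106%) in Klf9 +/+ and 58.2% (17.7 to 103%) in Klf9 f/f.

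Among the genes of endothelial surface, junction and secreted proteins, 4 of 17 were called lower (Cldn5, Flt1, Emcn and Egfl7), and 16 of 17 had negative values. Cldn5 (ENSMUSG00000041378, chr16:18776940-18778353 in mm9, plus strand) encodes claudin 5, the main strand protein of tight junctions between brain endothelial cells. The CPM of Cldn5 were 51.7, 17.7 and 30.3 over Klf9 +/+ replicates 1, 2 and 3 in turn, against 27.4, 8.71 and 10.8 over the Klf9 f/f replicates, an order that holds for each set of 3 values below. The genotypes overlapped, because Klf9 f/f replicate 1 lay above Klf9 +/+ replicate 2. Its mean was 33.2 ± 17.2 CPM in Klf9 +/+ and 15.6 ± 10.2 CPM in Klf9 f/f (SD, n = 3), and its log2 fold change was -1.12 ± 0.46 (SE; adjusted p = 1.00, edgeR). Flt1, the receptor that binds and sequesters Vegfa, was at 59.5, 24.5 and 39.4 CPM against 34.0, 10.1 and 13.9 CPM (log2 fold change -1.11 ± 0.44). The libraries took the same order as for Cldn5. Emcn, a mucin-like glycoprotein of capillary and venous endothelium, was at 11.4, 6.99 and 9.998 CPM against 8.61, 3.06 and 2.49 CPM (log2 fold change -1.06 ± 0.43). Egfl7, a secreted endothelial factor, was at 39.5, 20.3 and 30.1 CPM against 23.5, 20.1 and 15.2 CPM (log2 fold change -0.63 ± 0.25). Egfl7 hosts Mir126, and 11.2% of its exonic bases are shared with other genes, so its count is less certain.

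The other 13 surface and junction genes were not called. Pecam1, Cdh5, Kdr, Tek, Tie1, Esam, Ly6c1, Ly6a and Vwf had log2 fold changes of -0.92 to -1.23 with standard errors of 0.43 to 0.58, a size of difference like that of the called genes. Vwf, the carrier of a clotting factor, was at 30.4, 8.42 and 58.9 CPM in Klf9 +/+ against 17.6, 4.47 and 14.1 CPM in Klf9 f/f, with the lowest and highest Klf9 +/+ libraries in different series. Ly6a and Ly6c1 belong to a family of related genes, and how reads were split within the family is uncertain. The tight junction scaffold Tjp1, which is not restricted to endothelium, had the opposite sign, at 52.9, 46.2 and 62.4 CPM against 67.0, 46.1 and 63.8 CPM (log2 fold change 0.14 ± 0.16). Ocln, a further tight junction gene, had a log2 fold change of -0.32 ± 0.38. Itm2a had -0.73 ± 0.39, and Eng, a co-receptor of the TGF-beta family, -0.67 ± 0.38.

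Among the 4 endothelial transcription factors, Sox17, Sox18 and Foxq1 were called lower and Erg was not. Sox17 and Sox18 are SoxF factors that act in arterial and vascular development, and Erg is an ETS factor that maintains endothelial identity. Sox18 had 15.3, 8.37 and 9.31 CPM in Klf9 +/+ against 8.03, 2.76 and 4.90 CPM in Klf9 f/f (means 10.99 ± 3.76 and 5.23 ± 2.65, SD, n = 3; log2 fold change -1.06 ± 0.38, adjusted p = 1.00, edgeR). It was the only endothelial gene whose 3 Klf9 f/f libraries all lay below the 3 Klf9 +/+ libraries, a separation that 1.35% of all genes tested showed in this direction (the reverse was seen in 0 of the 36 members and in 2.03% of all genes). Sox17 was at 12.9, 4.24 and 9.12 CPM against 5.72, 2.15 and 3.07 CPM (log2 fold change -1.26 ± 0.46). Foxq1, a forkhead factor gene, was at 5.58, 3.11 and 4.57 CPM against 3.34, 1.11 and 1.51 CPM (log2 fold change -1.15 ± 0.43). For both, Klf9 f/f replicate 1 lay above Klf9 +/+ replicate 2. Foxq1 shares 41.6% of its exonic bases with a gene on the opposite strand, A530084C06Rik, and reads were counted without strand. Erg, near the lower end of detection, was at 1.62, 0.59 and 1.90 CPM against 1.69, 0.24 and 0.71 CPM (log2 fold change -0.53 ± 0.68).

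The transporters of the barrier gave no call, with the quasi-likelihood test, DESeq2 or the likelihood-ratio test alike, and 0 of 5 had an unadjusted p under 0.05 in the first. Slco1a4, an organic anion transporter, and Abcb1a, the drug efflux pump P-glycoprotein, had log2 fold changes of -0.84 ± 0.49 and -0.84 ± 0.51. Slco1a4 was at 48.4, 26.8 and 46.1 CPM in Klf9 +/+ against 43.8, 9.25 and 15.7 CPM in Klf9 f/f, so that 1 of the 3 Klf9 f/f libraries stood with the Klf9 +/+ libraries and the other 2 below them. Abcg2, the other efflux pump, had a log2 fold change of -0.51 ± 0.37. Slco1c1, which carries thyroxine into the brain, was at 87.5, 51.4 and 69.4 CPM against 88.8, 39.8 and 56.2 CPM (log2 fold change -0.17 ± 0.29). Mfsd2a, the lipid transporter that keeps transcytosis low, was at 40.3, 26.7 and 20.2 CPM against 43.0, 35.2 and 21.4 CPM (log2 fold change 0.18 ± 0.18). Slco1c1 and Mfsd2a thus overlapped between genotypes across nearly their full range. Slco1c1 is also made by astrocytes. Abcb1a has a close paralog, as has Slco1a4, and reads that match both copies cannot be assigned.

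**Figure D2:**
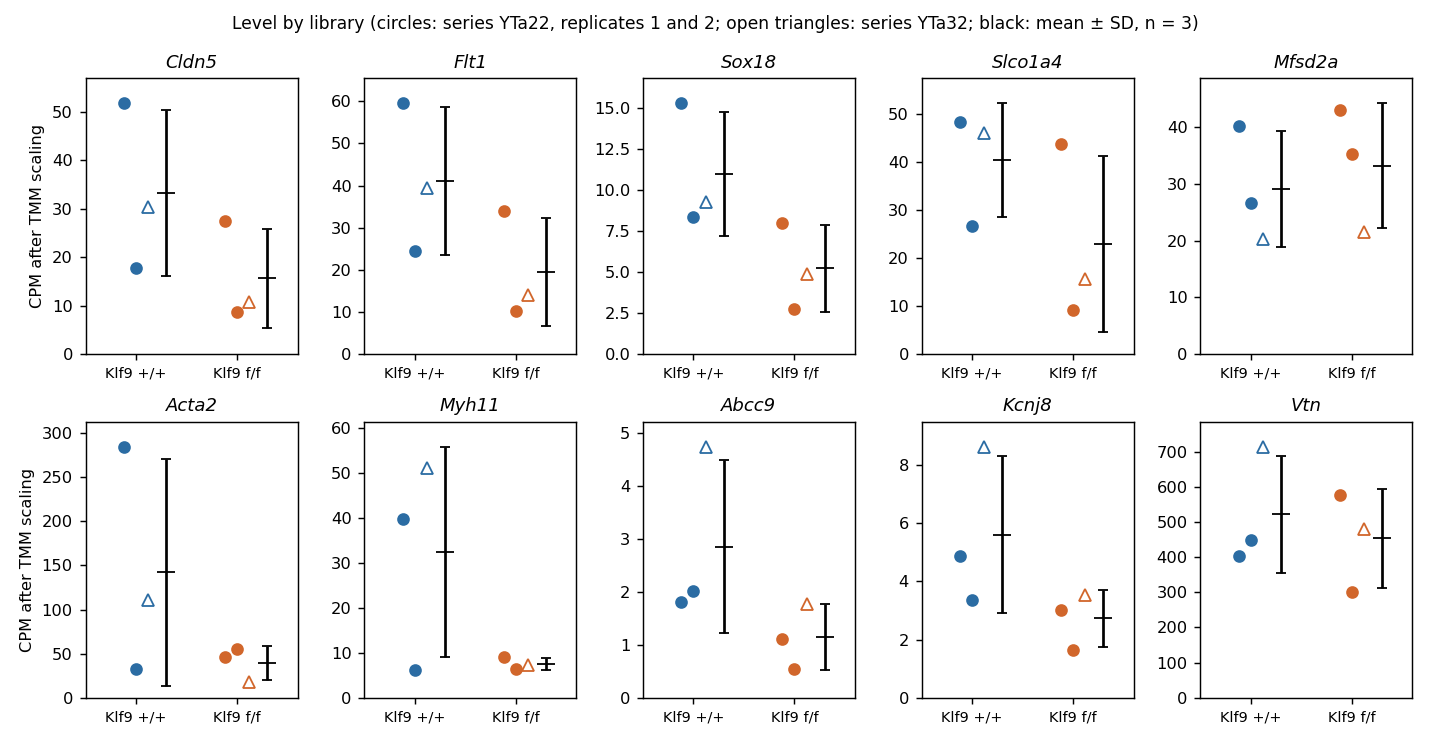
Level of 10 vascular genes in each library (CPM after TMM scaling, linear axes from 0), with Klf9 +/+ in blue and Klf9 f/f in orange, circles for series YTa22, open triangles for series YTa32 and black bars for the mean ± SD of 3 samples. For Cldn5, Flt1 and Slco1a4 the higher Klf9 f/f circle lies above the lower Klf9 +/+ circle, and for Abcc9 and Sox18 the genotypes do not overlap.

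The mural genes had 5 calls, and all 10 had negative log2 fold changes. The largest differences among all 36 were in the contractile genes of smooth muscle, Acta2 (smooth muscle actin), Tagln (transgelin, an actin-binding protein) and Myh11 (smooth muscle myosin heavy chain). Acta2 (ENSMUSG00000035783, chr19:34315580-34329826, minus strand) had 284, 32.8 and 111 CPM in Klf9 +/+ against 45.8, 55.4 and 18.3 CPM in Klf9 f/f (log2 fold change -1.95 ± 0.61, adjusted p = 1.00, edgeR). Tagln was at 82.1, 16.4 and 49.3 CPM against 18.6, 18.3 and 10.7 CPM (log2 fold change -1.67 ± 0.48, adjusted p = 0.959, edgeR). Myh11 was at 39.8, 6.21 and 51.0 CPM against 8.97, 6.35 and 7.26 CPM (log2 fold change -1.97 ± 0.57, adjusted p = 0.959, edgeR). In all of them Klf9 +/+ replicates 1 and 3 were far above the other 4 libraries, while Klf9 +/+ replicate 2 was below Klf9 f/f replicates 1 and 2. Without Klf9 +/+ replicate 1, none of the 3 was called, and their log2 fold changes were -0.81, -0.87 and -1.09.

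Kcnj8 and Abcc9 encode the pore (Kir6.1) and the regulatory subunit (SUR2) of the ATP-sensitive potassium channel of pericytes and smooth muscle, and they lie 16505 bp apart on the minus strand of chromosome 6. Kcnj8 (ENSMUSG00000030247, chr6:142513459-142519876) was at 4.85, 3.36 and 8.59 CPM in Klf9 +/+ against 3.01, 1.65 and 3.52 CPM in Klf9 f/f (means 5.60 ± 2.70 and 2.72 ± 0.97, SD, n = 3; log2 fold change -0.97 ± 0.30, adjusted p = 1.00, edgeR). Abcc9 (ENSMUSG00000030249, chr6:142536382-142650794) was at 1.82, 2.02 and 4.74 CPM against 1.11, 0.54 and 1.78 CPM (means 2.86 ± 1.63 and 1.15 ± 0.62; log2 fold change -1.27 ± 0.35, adjusted p = 0.909, edgeR). For Abcc9 every Klf9 f/f library lay below every Klf9 +/+ library, although Klf9 f/f replicate 3 at 1.78 CPM and Klf9 +/+ replicate 1 at 1.82 CPM nearly met. With Sox18, these were the 3 members in which each Klf9 f/f library was below each Klf9 +/+ library of its own series, a pattern of 5.53% of all genes tested, and 0 members had the reverse, seen in 7.78% of all genes. The call of Kcnj8 was lost without Klf9 +/+ replicate 3 (-0.82) or Klf9 f/f replicate 3 (-0.81). Either way the genotype difference comes from series YTa22 alone, where Kcnj8 was not called (-0.82), so these are not separate checks.

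The other 5 mural genes, expressed in pericytes, were not called. Pdgfrb, the receptor by which pericytes are recruited, was at 28.9, 18.1 and 51.9 CPM against 26.9, 16.3 and 39.2 CPM (log2 fold change -0.21 ± 0.23). Vtn was at 404, 449 and 712 CPM against 577, 301 and 481 CPM (log2 fold change -0.16 ± 0.24). Rgs5, a regulator of G-protein signalling, had a log2 fold change of -0.57 ± 0.29, Notch3, the Notch receptor of mural cells, -0.48 ± 0.31 and the aminopeptidase gene Anpep -0.28 ± 0.38. In all 5 of these genes, Klf9 +/+ replicate 3 was the highest library. A direct test of the channel genes against the other pericyte genes was not made.

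**Figure D3:**
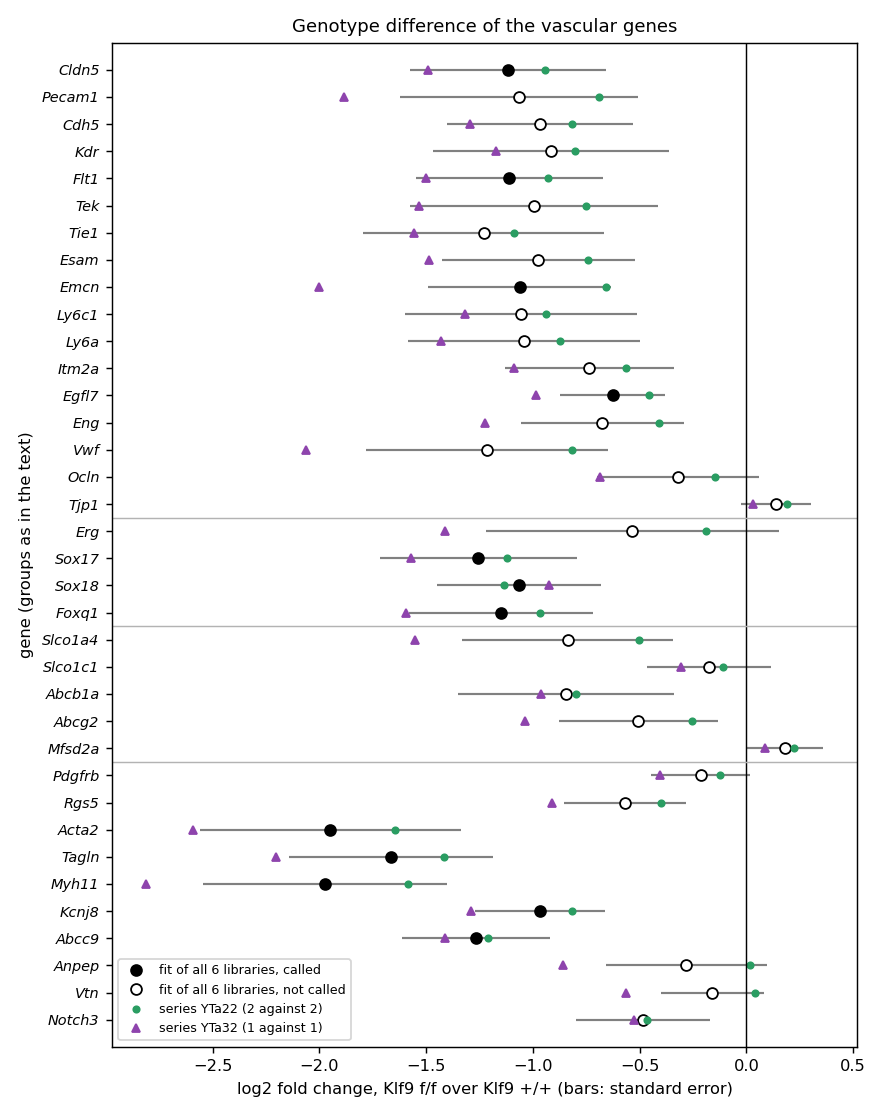
Log2 fold change of the 36 genes, Klf9 f/f over Klf9 +/+, from the fit of all 6 libraries (large circles with standard error, filled where called) beside the differences within series YTa22 (green) and within series YTa32 (purple triangles). The triangles lie left of the green points for all but Sox18, and the contractile genes Acta2, Tagln and Myh11 lie farthest from 0.

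The promoters of called genes are printed here for Cldn5 and Acta2, as the endothelial and the contractile example, and for the neighbours Kcnj8 and Abcc9. Each is the RefSeq window of 250 bases before the annotated start, on the gene's strand, located in mm9 by exact match at chr16:18776690-18776939 (plus), chr19:34329864-34330113 (minus), chr6:142520135-142520384 (minus) and chr6:142650795-142651044 (minus). Capitals mark the letters of a GC box (GGGCGG on either strand, here read as CCGCCC), the type of sequence that Krüppel-like factors and Sp factors recognise.
Cldn5: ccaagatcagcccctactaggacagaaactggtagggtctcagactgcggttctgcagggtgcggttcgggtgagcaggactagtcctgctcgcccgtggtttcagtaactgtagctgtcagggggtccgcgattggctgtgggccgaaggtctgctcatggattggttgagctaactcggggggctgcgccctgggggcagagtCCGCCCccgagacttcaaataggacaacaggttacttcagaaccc
Acta2: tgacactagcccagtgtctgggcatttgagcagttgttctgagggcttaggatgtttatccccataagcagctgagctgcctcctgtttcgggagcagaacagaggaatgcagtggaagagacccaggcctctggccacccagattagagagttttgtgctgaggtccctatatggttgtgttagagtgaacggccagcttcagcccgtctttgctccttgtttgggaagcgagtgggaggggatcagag
Kcnj8: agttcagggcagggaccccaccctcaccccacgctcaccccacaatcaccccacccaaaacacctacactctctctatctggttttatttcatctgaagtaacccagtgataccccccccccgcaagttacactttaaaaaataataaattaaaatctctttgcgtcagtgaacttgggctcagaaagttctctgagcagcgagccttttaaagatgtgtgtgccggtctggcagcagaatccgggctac
Abcc9: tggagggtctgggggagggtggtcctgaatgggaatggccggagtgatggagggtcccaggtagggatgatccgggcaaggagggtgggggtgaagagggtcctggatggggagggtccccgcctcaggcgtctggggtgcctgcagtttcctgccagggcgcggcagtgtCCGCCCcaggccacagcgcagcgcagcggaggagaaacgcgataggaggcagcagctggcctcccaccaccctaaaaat
The GC box lay 45 bases before the start of Cldn5 and 79 bases before that of Abcc9. The windows of Acta2 and Kcnj8 held no exact match to the letters searched. The CArG box, which serum response factor binds in smooth muscle genes, was searched only in its strict form (CC, then 6 letters that are each A or T, then GG), and CArG elements that depart from it by a letter, as in smooth muscle promoters such as that of Acta2, were not counted.

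A RefSeq window was at hand for 25 of the 36 genes (33 windows, as some genes have several starts). GGGCGG, searched on both strands, was found in 9 of 19 endothelial, 2 of 7 transporter and 3 of 7 mural windows, against 32.7% of all 32851 windows. CAGGAAG, a form of the ETS motif, was found in 5 of 19 endothelial, 2 of 7 transporter and 0 of 7 mural windows, against 10.8% of all. CCGGAAG and the strict CArG form were found in none of the 33, against 6.91% and 1.47% of all windows, and TATAAA was found in 3 of 19, 0 of 7 and 1 of 7, against 12.4%. A match is a stretch of letters and not a bound site.

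Within series YTa22, libraries of the same genotype lay far apart for most of the 36 genes. There, Klf9 +/+ replicate 1 was above Klf9 +/+ replicate 2 in 21 of 21 endothelial genes, 5 of 5 transporters and 7 of 10 mural genes, and Klf9 f/f replicate 1 was above Klf9 f/f replicate 2 in 21, 5 and 9 (49.8% and 49.7% of all genes tested). Klf9 f/f replicate 1 was above Klf9 +/+ replicate 2 in 33 of the 36, against 50.5% of all genes. The full order from Klf9 +/+ replicate 1 through Klf9 f/f replicate 1 and Klf9 +/+ replicate 2 down to Klf9 f/f replicate 2 was taken by 17 of 21 endothelial genes, 3 of 5 transporters and 2 of 10 mural genes, against 4.39% of all genes. The endothelial genes share cells and libraries, so these counts are a description of 4 libraries. The gap between the 2 Klf9 +/+ libraries of the series exceeded the genotype difference within the series for 32 of the 36, and the gap between the 2 Klf9 f/f libraries did so for 30. The share over all genes was not computed for these counts. A gap between single libraries varies more than a difference between means of 2 libraries, so it tends to be the larger.

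Group means showed the same gaps between libraries for the endothelial genes and the transporters. Averaged over the 21 endothelial genes, log2 CPM was higher by 1.16 in Klf9 +/+ replicate 1 than in replicate 2 and by 1.81 in Klf9 f/f replicate 1 than in replicate 2, while the genotypes differed by -0.87 in series YTa22 and by -1.34 in series YTa32. For the transporters these values were 0.84, 1.51, -0.45 and -0.75. Acta2, Tagln and Myh11, set apart after their values were seen, had another profile: Klf9 +/+ replicate 1 exceeded replicate 2 by 2.71, whereas Klf9 f/f replicates 1 and 2 differed by 0.08, and the genotypes differed by -0.99 in series YTa22 and by -2.54 in series YTa32. For the other 7 mural genes the gaps were 0.34 and 0.91, and the genotype differences -0.46 and -0.85. Across the 6 libraries, the standard deviation of log2 CPM had a median of 0.97 over the endothelial genes, and of 0.44 once each gene was expressed relative to the mean of the other endothelial genes. It became smaller in 19 of 21, the exceptions being Egfl7 and Tjp1. Relative to the endothelial mean, the standard deviation also became smaller in 3 of 5 transporters, 3 of 3 contractile genes and 5 of 7 other mural genes. In large part the endothelial genes moved together from library to library, and this spread includes the genotype difference.

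In series YTa32, Klf9 f/f replicate 3 was below Klf9 +/+ replicate 3 in 34 of the 36 genes, against 46% of all genes tested. The group medians within series YTa22 were -0.80 (endothelial), -0.25 (transporters) and -0.64 (mural), and within series YTa32 they were -1.43, -0.96 and -1.10. Whether the genotype effect differed between the series was tested with an interaction term in edgeR's quasi-likelihood test. An unadjusted p under 0.05 was reached by 0 of the 36 (lowest 0.122), as with DESeq2 and the likelihood-ratio test, and by 1.53% of all genes.

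**Figure D4:**
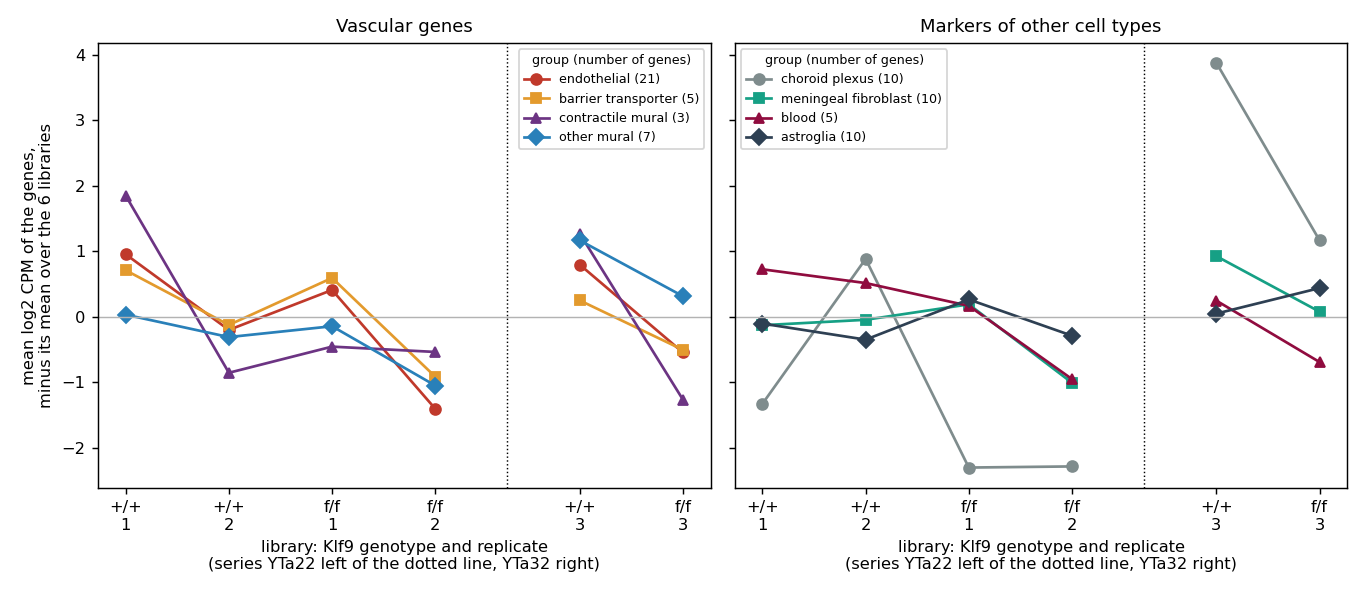
Mean log2 CPM of each gene group in the 6 libraries, minus its mean over the libraries, for the vascular genes (left) and for markers of other cell types (right, with a prior count of 2), and with library series separated by the dotted line. The endothelial and transporter lines zigzag in parallel through the 4 libraries of series YTa22, the contractile line peaks in Klf9 +/+ replicates 1 and 3, and the choroid plexus line spans more than 6 log2 units.

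Further genes of the same cells, in the same libraries, were called lower as well, and none higher. Of all genes tested, 2.5% were called lower and 1.82% higher at this unadjusted threshold. Of 26 other endothelial genes, 7 were called lower (Ctla2a, Cd93, Clec14a, Apold1, Nos3, Acvrl1 and Klf2) and 0 higher, 22 had negative values, and the median log2 fold change was -0.67. Nos3, the endothelial nitric oxide synthase, was at 12.05, 5.13 and 11.7 CPM against 6.42, 3.22 and 4.41 CPM (log2 fold change -1.01 ± 0.37). Slc2a1, the glucose transporter of the barrier, was not called at -0.45 ± 0.28, and Ramp2, Tmem100, Slc7a5 and Tfrc had values of 0.02 to 0.11. Of 14 other mural genes, 6 were called lower (Cnn1, Des, Ndufa4l2, Tbx18, Foxf2 and Lmod1) and 0 higher, with a median of -0.65. Cnn1 and Lmod1, which encode contractile proteins of smooth muscle, had log2 fold changes of -1.94 ± 0.76 and -1.33 ± 0.46, and Tbx18 and Foxf2, transcription factors of mural cells, had -0.83 ± 0.24 and -1.14 ± 0.36. Of the same 14, Cspg4, Atp13a5 and Cox4i2, expressed in pericytes, were not called at -0.08, -0.11 and 0.10, while 12 of the 14 had negative values.

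The median of the ligands that act on vessels was near 0. Of 19 listed, 18 could be tested, 1 was called higher and 0 lower, and the median log2 fold change was -0.05. Vegfa, the main growth factor of endothelium, was at 19.3, 16.9 and 32.9 CPM against 19.4, 17.8 and 27.8 CPM (log2 fold change -0.05 ± 0.15). Pdgfb, which endothelial cells make for pericytes, had a log2 fold change of -0.48 ± 0.25, Angpt2, made by activated endothelium, -0.57 ± 0.42, and Ndp, a glial ligand that maintains the barrier, 0.04 ± 0.14. Wnt7b, a Wnt ligand that induces barrier properties, was the gene called higher, at 96.7, 89.5 and 169 CPM against 135, 127 and 208 CPM (log2 fold change 0.43 ± 0.12, adjusted p = 0.959, edgeR).

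Markers of other cell types moved as well, where 2.5% of all genes tested were called lower and 1.82% higher. All 10 choroid plexus genes were called lower (median log2 fold change -2.49), and their summed level was 135, 709 and 2652 CPM in Klf9 +/+ and 23.2, 20.4 and 406 CPM in Klf9 f/f. Their order was unlike that of the endothelial genes, with Klf9 +/+ replicate 1 below replicate 2. All 5 red blood cell genes tested were called lower (median -0.92), with summed levels of 136, 111 and 88.5 CPM against 90.6, 39.6 and 46.1 CPM, and the sixth, Slc4a1, was under the filter at 0 to 0.18 CPM. Of 10 meningeal fibroblast genes, 1 was called lower (Ogn) and all had negative values (median -0.43), with summed levels of 884, 974 and 1764 CPM against 1125, 527 and 1043 CPM. The 10 microglia genes and the 8 granule neuron genes had 0 calls in either direction by the quasi-likelihood test, also at an unadjusted p under 0.05 alone, and medians of 0.13 and 0.05, and of 10 astroglia genes 2 were called higher (Aldh1l1 and Gfap) and 0 lower, with a median of 0.23. The summed level of the 21 endothelial genes was 964, 452 and 684 CPM in Klf9 +/+ and 690, 233 and 317 CPM in Klf9 f/f. The part of blood, meninges and choroid plexus in the vascular differences was not tested.

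The number of calls depended on single libraries. Without Klf9 +/+ replicate 1, 2 of the 36 genes were called lower, Kcnj8 and Abcc9, and 0 of the 21 endothelial genes. Without Klf9 f/f replicate 1, 32 of the 36 were called, 20 of them endothelial. Without Klf9 +/+ replicate 2 there were 23 calls, 16 of them endothelial, and without Klf9 +/+ replicate 3, Klf9 f/f replicate 2 or Klf9 f/f replicate 3 there were 5, 6 and 5, with 1 endothelial gene each. Calls lower over all genes moved too, from 376 with all 6 libraries to 309 without Klf9 +/+ replicate 1 and 719 without Klf9 f/f replicate 1. They numbered 540 without Klf9 +/+ replicate 2, 209 without Klf9 +/+ replicate 3 and 274 without Klf9 f/f replicate 2. Through these fits the median log2 fold change of the endothelial genes ranged from -1.81 to -0.62. Abcc9 was called in all 6 of them, Sox18, Acta2, Tagln and Myh11 in all but the one without Klf9 +/+ replicate 1. The fits without Klf9 +/+ replicate 3 and without Klf9 f/f replicate 3 are not separate checks. In both, the genotype difference comes from series YTa22 alone.

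**Figure D5:**
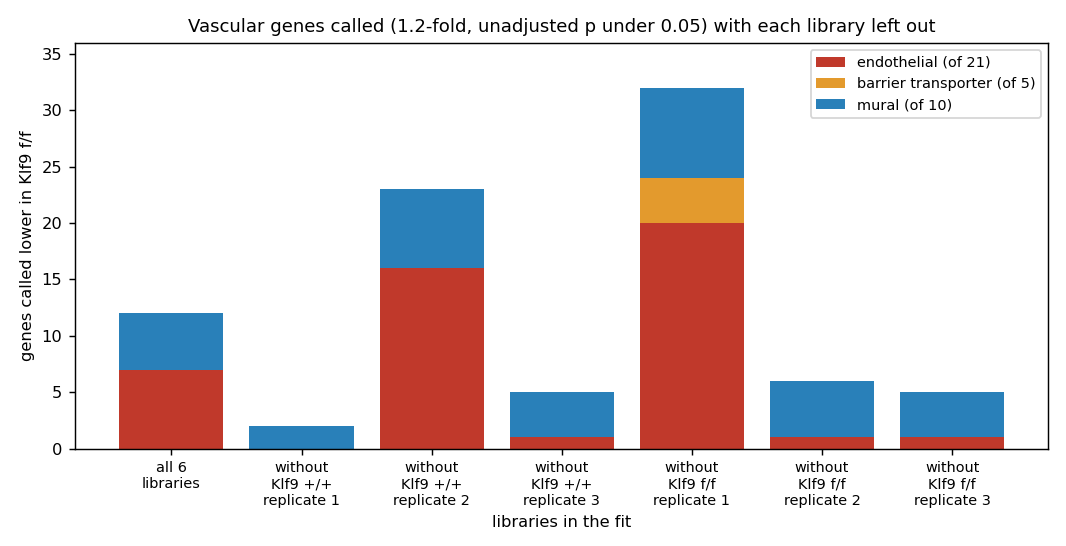
Number of vascular genes called lower in Klf9 f/f (at least 1.2-fold, unadjusted p under 0.05) with all 6 libraries and with each library left out, stacked by gene group. The count is 12 with all libraries, 2 without Klf9 +/+ replicate 1 and 32 without Klf9 f/f replicate 1.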

How the data were processed

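The members, lists and tests were chosen with earlier results of these data known. Per the study's methods, the authors mapped 50 bp reads with STAR to mm9 and counted them per gene without regard to strand with HTSeq 0.6.0. The deposited values are these raw counts, with 5 summary lines left out here. Genes were named and measured with GENCODE M1 on the same build (37205 of 37620 named), and promoters come from the RefSeq table of GRCm38.p6, placed in mm9 by exact match. In GENCODE M1, besides Egfl7 and Foxq1, other genes share 6.07% of the exonic bases of Notch3, 4.78% of Eng and 4.1% of Tagln.

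Genes above 1 CPM, before scaling, in at least 1 sample were kept (15056). Counts were scaled by TMM, and all genes were tested together with the quasi-likelihood test of edgeR 4.0.16 (R 4.3.3) with library series and genotype as terms (3 residual degrees of freedom, biological coefficient of variation 0.198). CPM are after TMM. Each standard error of a fold change is the size of the log2 fold change divided by the square root of the test's F statistic. Group means of markers of other cell types used a prior count of 2. Genes were called at 1.2-fold with an unadjusted p under 0.05, and p-values were adjusted over all genes by the Benjamini-Hochberg method. An unadjusted p under 0.05 was found for 650 genes, and 5% of those tested is 752.8. Libraries are pools, and p-values measure the spread between these pools. All members are named, and from other lists the called genes and up to 4 of the highest mean CPM. Vegfa, Pdgfb, Angpt2, Ndp, Cspg4, Atp13a5, Cox4i2, Ramp2, Tmem100, Slc7a5, Tfrc, Slc2a1 and Sox9 serve as examples chosen after their values were seen, where that rule does not name them. No library was within counting noise of another. The scripts were tested on simulated data. Alternatives were DESeq2 1.42.0, the likelihood-ratio test, no series term, upper-quartile and library-size scaling, other filters, series YTa22 alone and each library left out. Because the series term is kept, leaving out either library of series YTa32 leaves the genotype difference to series YTa22, nearly as in that series alone. For the interaction and for the medians within series, alternatives were added after seeing the data. Figures were drawn with matplotlib 3.10.9.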

Additional observations from a re-analysis of the deposited data

How the results depend on the processing

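No paired analysis was possible because the labels give no replicate numbers. The numbers used here are running numbers in accession order, which tie no Klf9 +/+ library to a Klf9 f/f library. The members called lower numbered 28 with no filter beyond 1 count (25 of them at an adjusted p under 0.05, against 0 in the fit reported) and 5 in series YTa22 alone, and 2 to 32 with each library left out. DESeq2 gave 12, of which 10 were among those reported, the likelihood-ratio test 18, and the fit with no series term 8. Over all genes, DESeq2 called 398 lower and 277 higher, and the likelihood-ratio test 447 and 290, against 376 and 274 in the fit reported. Without Klf9 +/+ replicate 2, Acta2, Tagln and Myh11 had adjusted p-values under 0.05. The cause of these shifts was not tested. Endothelial calls numbered 3 with no series term, 13 with the likelihood-ratio test, 18 with no filter, 1 in series YTa22 alone and 0 to 20 with a library left out, transporter calls 3 with no filter and 0 to 4 with a library left out, and mural calls 2 to 8 with a library left out. The transporter median ran from -1.13 to -0.23 with a library left out.

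Over all genes, calls up numbered 50 with no series term, 513 with no filter, 163 in series YTa22 alone and 130 to 493 with a library left out, and calls down 163, 926, 202 and 209 to 719. At an adjusted p under 0.05 there were 7 genes up and 32 down with DESeq2, 13 and 45 with the likelihood-ratio test, 56 and 278 with no filter, 5 and 8 in series YTa22 alone, and 0 to 6 and 0 to 9 with a library left out. The interaction reached an adjusted p under 0.05 in 11 genes with DESeq2, 13 with the likelihood-ratio test and 27 with no filter. With the filter in 3 samples it did so in 1 gene. An unadjusted p under 0.05 was reached by 6 members with no filter, and the share over all genes was not computed for that fit.

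Signs turned in 5 members that were not called. Anpep was at 0.020 in series YTa22 alone and, with a library left out, between -0.82 (without Klf9 f/f replicate 1) and 0.022 (without Klf9 f/f replicate 3), with 0.018 without Klf9 +/+ replicate 3. Vtn was at 0.039 in series YTa22 alone and between -0.53 (without Klf9 f/f replicate 1) and 0.042 (without Klf9 f/f replicate 3), with 0.038 without Klf9 +/+ replicate 3 and 0.020 without Klf9 f/f replicate 2. Slco1c1 ran from -0.59 (without Klf9 f/f replicate 1) to 0.080 (without Klf9 f/f replicate 2), with 0.053 without Klf9 +/+ replicate 1. Ocln ran from -1.001 to 0.0012 and Tjp1 from -0.045 to 0.27, without the same Klf9 f/f libraries. No member was called higher under any alternative run.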
